A study of Mus musculus with 6 samples.

Results

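The RNA interference machinery was represented by 10 of the 18193 genes named on the array, namely the Argonaute genes Ago1, Ago2, Ago3 and Ago4 and the genes Dicer1, Drosha, Dgcr8, Xpo5, Tarbp2 and Prkra. Every probe set that the array annotation assigns to 1 of these symbols alone was taken, the Argonaute genes also under their former names Eif2c1 to Eif2c4, which gave 27 of the 45101 probe sets on the array. Of these, 23 passed the filter on dim probe sets and were tested, with at least 1 for each of the 10 genes, and 4 were too dim. The measurements came from AtT-20, a tumour cell line derived from mouse pituitary corticotrophs, so all arrays share 1 cell line. The cells received 20 nM siRNA repeatedly for 8 days, either siDNMT1, directed at the maintenance DNA methyltransferase gene Dnmt1, or siNT, a non-targeting siRNA, and total RNA was hybridised to 1 Affymetrix array per sample. There were 3 siDNMT1 arrays and 3 siNT arrays, 1 of each from every independent repeat of the experiment. Both groups were loaded with siRNA, so the comparison is between 2 siRNAs and holds no cells without siRNA.

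RNA interference starts from short double-stranded RNA. In the microRNA branch Drosha, a nuclease, and Dgcr8, its RNA-binding partner, cut hairpins out of nuclear transcripts, Xpo5 (exportin 5) carries the hairpins to the cytoplasm, and Dicer1 cuts them to short duplexes together with its double-stranded RNA-binding partners Tarbp2 (TRBP) and Prkra (PACT). A transfected siRNA enters downstream of these cuts and is loaded into an Argonaute protein, of which Ago2 has the slicer activity by which a perfectly matched messenger such as that of Dnmt1 is cut. The comparison asks whether the genes of the machinery through which the knockdown works differed in level between the siRNAs.

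Dnmt1 methylates cytosine in CG dinucleotides, so the CG content of the genes' promoters is shown for context. RefSeq windows of 300 bases around the transcription start (build GRCm38.p6, from 250 bases before the start onward) were matched for 9 of the 10 genes, all but Ago2. These 10 windows, 2 of them for Ago1, held 16 to 54 CG dinucleotides, and all 10 lay above the median of 7 over 32851 windows of the same length. The letters CG read the same on both strands and were counted without overlap. The windows with the most and the fewest CG are printed 5' to 3' with each CG in capitals. Ago4 (chr4:126533409-126533708, minus strand) held 54, a number reached by 0.35% of all windows, and Prkra (chr2:76647978-76648277, minus strand) held 16, reached by 33.0%.
Ago4: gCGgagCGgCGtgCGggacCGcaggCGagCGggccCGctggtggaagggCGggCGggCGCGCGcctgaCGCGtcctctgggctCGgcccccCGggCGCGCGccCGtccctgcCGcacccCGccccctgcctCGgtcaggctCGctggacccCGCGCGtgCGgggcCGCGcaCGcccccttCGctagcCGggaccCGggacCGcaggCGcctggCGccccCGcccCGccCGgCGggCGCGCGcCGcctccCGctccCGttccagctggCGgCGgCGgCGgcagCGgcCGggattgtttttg
Prkra: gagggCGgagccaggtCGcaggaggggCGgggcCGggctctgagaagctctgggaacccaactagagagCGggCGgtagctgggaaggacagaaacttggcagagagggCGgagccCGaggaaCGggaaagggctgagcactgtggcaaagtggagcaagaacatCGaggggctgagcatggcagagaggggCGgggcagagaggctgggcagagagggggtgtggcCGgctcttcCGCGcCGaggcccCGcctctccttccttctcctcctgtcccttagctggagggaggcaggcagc
No methylation was measured on these arrays.

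Dnmt1 itself, measured to check the labels, was lower on all 3 siDNMT1 arrays. Relative to the siNT array of the same repeat, the signal of its brightest probe set was 39.6% in repeat 1, 20.2% in repeat 2 and 48.6% in repeat 3. The log2 difference was -1.54 (SE 0.24), with a limma adjusted p of 0.151 without the repeat number and 0.0211 when arrays were blocked by repeat (the paired fit). An exact permutation test of 3 arrays against 3 gave p = 0.1, the smallest it allows. Signals are in the array's own units after scaling of all arrays to a common median, and differences are siDNMT1 minus siNT on the log2(scaled signal + 5.29) scale, which understates differences of dim probe sets. All 7 corticotroph markers, Pomc and Tbx19 among them, passed the filter, with summed signals of 13121 to 20744 on the siDNMT1 arrays and 15681 to 20802 on the siNT arrays. Markers of other pituitary cells summed to 137 to 216 under siDNMT1 and 131 to 250 under siNT. Those of fibroblasts summed to 169 to 233 under siDNMT1 and 152 to 191 under siNT, and those of leukocytes to 483 to 512 under siDNMT1 and 471 to 574 under siNT. Of those lists 5 of 7, 5 of 8 and 4 of 7 markers on the array passed the filter, with Fshb, Pdgfrb and Ptprc among the dim ones. The leukocyte markers Lyz2 and Csf1r passed it, with means of 260 and 124 under siDNMT1 and 296 and 120 under siNT. So did Gh of the other pituitary cells, with means of 54.1 under siDNMT1 and 37.2 under siNT. The fibroblast markers Col1a2 and Pdgfra also passed, with means of 68.9 and 34.3 under siDNMT1 and 66.5 and 13.1 under siNT. Pomc and Chga made up most of the corticotroph sums, with means of 8443 and 6137 under siDNMT1. Levels cannot be compared between probe sets, so the sums do not rank the cell types. The part of these other markers in the results was not tested.

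No probe set of the 10 genes passed the threshold, an adjusted p of 0.05 over all 27022 tested probe sets, in the unpaired or the paired limma fit. Over all tested probe sets the unpaired fit called 0% and the paired one 0.0851%, so few calls were made anywhere on the array. Of the 23 member probe sets 9 had higher and 14 lower values under siDNMT1, against 11025 higher and 15997 lower of all tested ones. The median difference of the members was -0.17, where all tested probe sets had a median of -0.06. Ago2 accounted for 4 of the 14 lower ones. Without it the median of the remaining 19 was -0.04. At an unadjusted p under 0.05 the unpaired limma fit picked 3 member probe sets, all lower and all of Ago2, against 2.47% of all tested probe sets in that direction. The paired limma fit picked 3 lower ones, again of Ago2, and 1 higher one, Ago3 1441063_at (unadjusted p 0.0472). Of all 27022 tested probe sets it picked 1455 lower and 661 higher ones. The siDNMT1 and siNT values did not overlap on 4 member probe sets, 3 lower ones of Ago2 and 1 higher one of Ago3, against 5.78% of all tested probe sets for lower and 2.96% for higher. In the signal range of the Ago2 probe sets 7.36% were apart with siDNMT1 lower. Of the 4455 tested probe sets in that range, the unpaired limma fit picked 159 lower and 34 higher ones at an unadjusted p under 0.05. The paired limma fit picked 389 lower and 99 higher ones there.

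**Figure D1:**
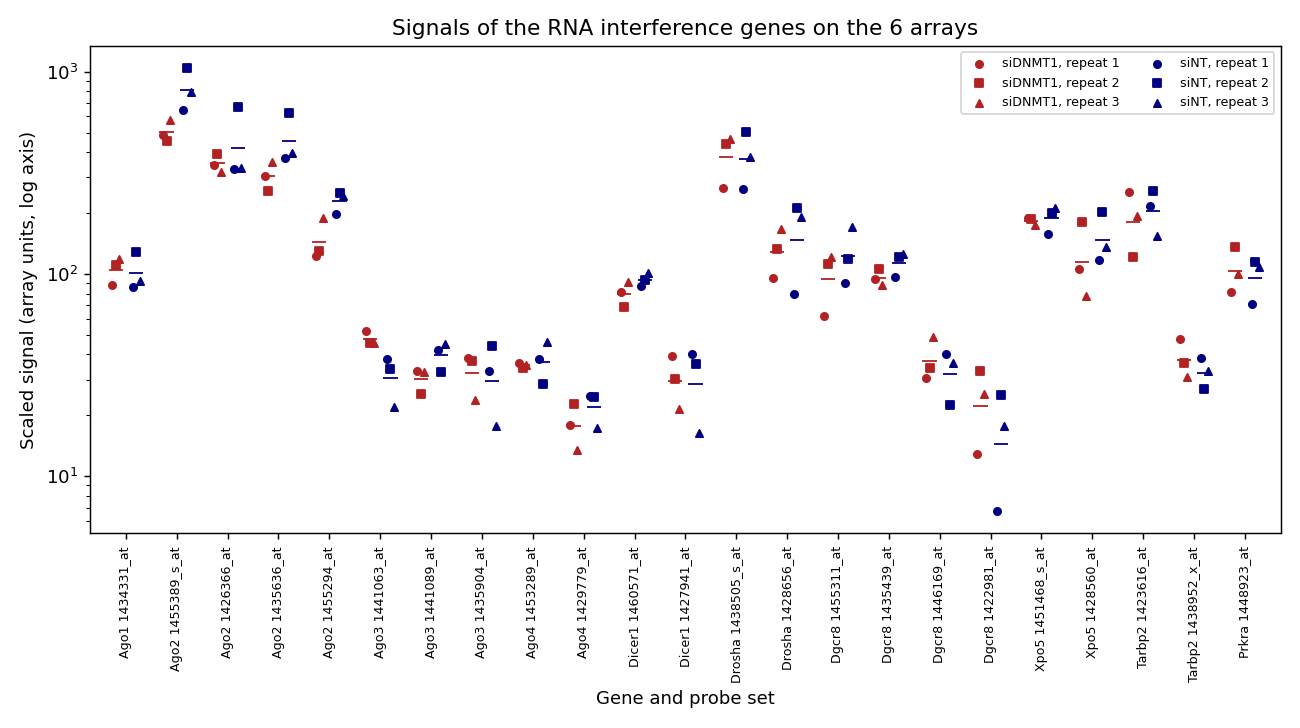
Scaled signal (array units, log axis) of the 23 tested probe sets on each of the 6 arrays, siDNMT1 in red and siNT in blue, with 1 marker shape per repeat and bars at the geometric means. Levels can be compared between arrays within a probe set and not between probe sets. The groups are apart on 3 of the 4 Ago2 probe sets and on Ago3 1441063_at and overlap on the others.

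Ago2, the slicing Argonaute, had lower signals under siDNMT1 on each of its 4 probe sets, and on 3 of them every siDNMT1 array lay below every siNT array. The brightest, 1455389_s_at, is of a kind that can cross-hybridise. On it the siDNMT1 arrays of repeats 1 to 3 read 487, 453 and 578 and the siNT arrays 646, 1041 and 795. The highest siDNMT1 value thus lay under the lowest siNT value, and the highest value of all was that of siNT in repeat 2. The means were 506 ± 64.4 for siDNMT1 and 827 ± 199 for siNT (SD, n = 3 each), a log2 difference of -0.68 (SE 0.19, 95% interval -1.11 to -0.26). The unpaired limma fit gave an unadjusted p of 0.00436 and an adjusted p of 1.00. The paired limma fit gave an unadjusted p of 0.000934 and an adjusted p of 0.204.

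The dimmest, 1455294_at, read 122, 129 and 188 under siDNMT1, against 199, 250 and 242 under siNT. Its groups did not overlap, and the difference was -0.65 (SE 0.21), with a paired limma adjusted p of 0.280. Probe set 1435636_at read 303, 256 and 359 under siDNMT1, against 375, 626 and 394 under siNT. Here the groups were apart by a small margin, with a difference of -0.57 (SE 0.22) and a paired limma adjusted p of 0.519. It was designed from the same transcript sequence as 1455389_s_at, so these 2 are not independent readings of the gene.

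The remaining Ago2 probe set, 1426366_at, read 346, 392 and 320 under siDNMT1, against 332, 665 and 334 under siNT. Its groups overlapped, since siNT exceeded siDNMT1 clearly in repeat 2 alone, and its difference was -0.25 (SE 0.25, 95% interval -0.80 to 0.30). That interval, from the unpaired fit, holds the differences of the other Ago2 probe sets. Within each repeat, though, its log2 difference of 0.06, -0.76 and -0.06 in repeats 1 to 3 lay above those of the other 3 probe sets, which were -0.68 to -0.30, -1.27 to -0.93 and -0.46 to -0.13. Whether the probe sets differ from each other was not tested. Over the 6 arrays their log2 values correlated at 0.357 to 0.962 between pairs of probe sets, a description of readings that share the same RNA. A difference over the whole population cannot separate fewer expressing cells from less RNA per cell.

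The Ago2 difference was unequal between repeats. On 1455389_s_at siDNMT1 stood at 75.4%, 43.5% and 72.6% of siNT in repeats 1, 2 and 3, and on 1455294_at at 61.4%, 51.7% and 77.6%. On 1435636_at the values were 80.8%, 40.8% and 91.2%. Repeat 2, with the least Dnmt1 left at 20.2%, was also the repeat with the lowest Ago2 share on all 4 probe sets. Any relation of Ago2 to remaining Dnmt1 over 3 repeats was not tested. The siNT array of repeat 2 also had the highest 2% trimmed mean after scaling, 107, where the other arrays had 89.9 to 98.5, and its part in the difference was not tested beyond leaving it out. Without the siNT array of repeat 2 the 4 differences were -0.51, 0.08, -0.34 and -0.59 from the brightest to the dimmest probe set, so that the sign of 1426366_at turned. Without repeat 3 the paired limma fit called 1455389_s_at, 1435636_at and 1455294_at lower, at adjusted p values of 0.00611, 0.0158 and 0.0400. That fit rests on 4 arrays and called 0.566% of all tested probe sets lower. With so few arrays it takes the spread of a probe set almost wholly from the other probe sets. On 1455389_s_at it gave an SE of 0.19, where the log2 differences of repeats 1 and 2 were -0.40 and -1.19. Its p values thus do not measure the spread between repeats. Without repeat 2 the paired limma fit called none of the 4, and the differences, from the brightest to the dimmest, were -0.43, -5.8e-05, -0.22 and -0.52, at adjusted p values of 0.254, 1.00, 0.771 and 0.423. Without repeat 1 it also called none of them.

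**Figure D2:**
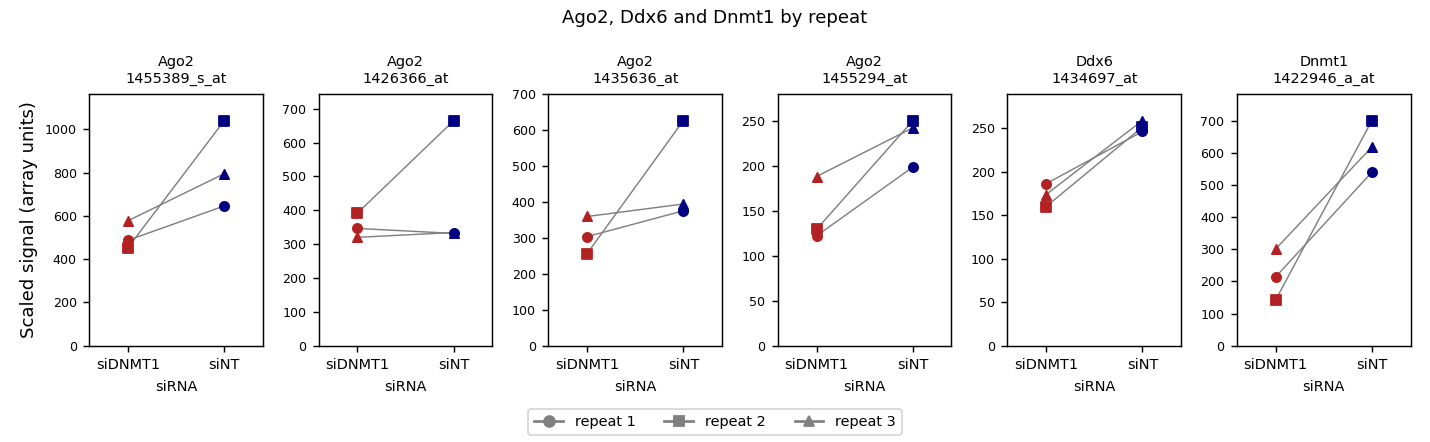
Scaled signal (array units, linear axes from 0) of the 4 Ago2 probe sets, the brightest Ddx6 probe set and the brightest Dnmt1 probe set, siDNMT1 on the left and siNT on the right, with lines joining the arrays of 1 repeat. The siDNMT1 point lies below the siNT point of its repeat throughout, except on Ago2 1426366_at in repeat 1, where siDNMT1 stood at 104% of siNT.

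The other Argonaute genes gave no shared direction. Ago1, Ago3 and Ago4, whose proteins bind the same small RNAs and act mainly through translational repression and messenger decay, lie next to each other on chromosome 4 with no other protein-coding gene between them. Ago1 was read by 1 probe set, at 87.7, 111 and 118 under siDNMT1, against 85.8, 129 and 92.0 under siNT. The groups overlapped throughout, and the difference was 0.06 (SE 0.22, 95% interval -0.42 to 0.54).

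Ago3 had 3 tested probe sets of mixed sign, and whether they differ from each other was not tested. The brightest, 1441063_at, read 51.9, 45.5 and 45.4 under siDNMT1, against 37.8, 34.1 and 22.0 under siNT. All siDNMT1 arrays were above all siNT arrays, by 0.56 (SE 0.27, 95% interval -0.03 to 1.14), with a limma adjusted p of 0.630 in the paired fit. In contrast, 1441089_at was lower in all 3 repeats, at 33.3, 25.6 and 32.8 under siDNMT1, against 41.9, 32.6 and 45.2 under siNT. Its groups overlapped narrowly, with a difference of -0.33 (SE 0.27). The third probe set, 1435904_at, was at 0.10 (SE 0.34). Opposite signs within the gene give no single Ago3 direction.
Ago4 was read by 2 probe sets designed from the same transcript sequence. The brighter read 36.3, 34.1 and 35.5 under siDNMT1, against 38.1, 28.5 and 46.0 under siNT, so the siDNMT1 values lay within the siNT range. The differences were -0.06 (SE 0.26) and -0.24 (SE 0.37).

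**Figure D3:**
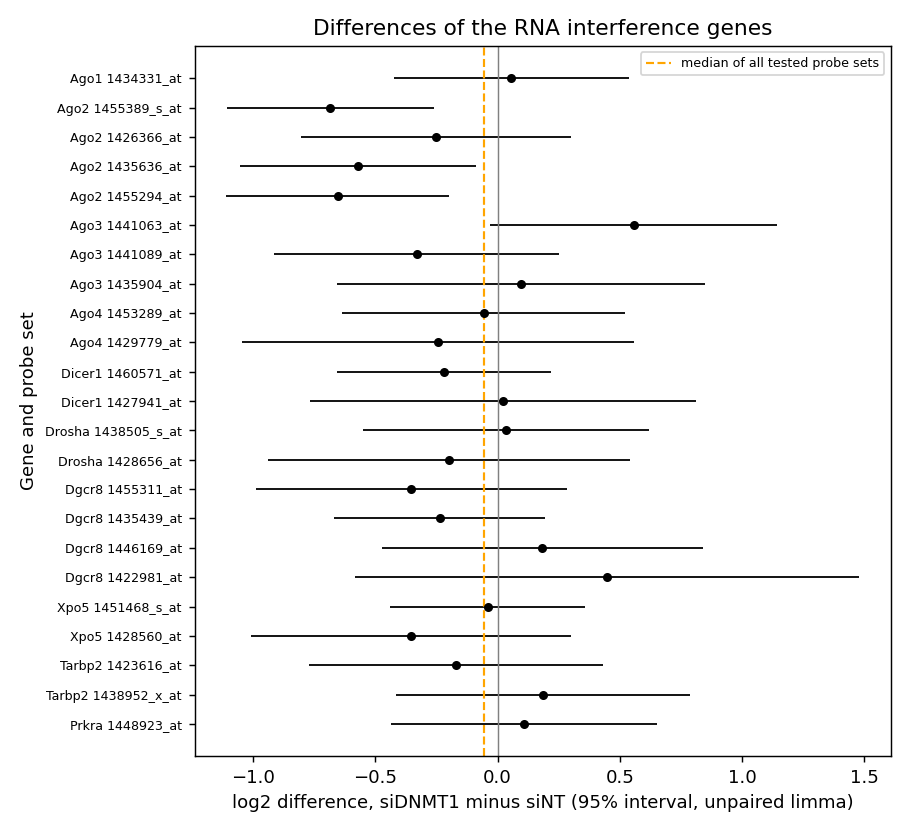
Log2 differences, siDNMT1 minus siNT, of the 23 tested probe sets with their 95% intervals from the unpaired limma fit, with the median of all tested probe sets (-0.06) as a dashed line. Only the intervals of Ago2 1455389_s_at, 1435636_at and 1455294_at leave out 0, before any adjustment for the number of probe sets tested.

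Drosha, the nuclear hairpin-cutting nuclease, varied more between repeats than between the siRNAs. On its brightest probe set, 1438505_s_at, it read 264, 438 and 466 under siDNMT1, against 263, 506 and 377 under siNT. Both arrays of repeat 1 were the lowest of their group, and the siRNA groups overlapped, with a difference of 0.04 (SE 0.27, 95% interval -0.55 to 0.62). The other tested Drosha probe set, 1428656_at, had the same low repeat, with 95.2 for siDNMT1 and 79.2 for siNT in repeat 1 where the arrays of the other repeats held 133 to 212. Its difference was -0.20 (SE 0.34). Of the sum of squares of the log2 values over the 6 arrays, the repeat number took 92.0% and 82.3% on these 2 probe sets, and the siRNA took 0.22% and 3.91%.

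Dgcr8, which holds the hairpin in place for Drosha, had 4 probe sets of mixed sign. The 2 brightest, designed from the same transcript sequence, were lower under siDNMT1 in all 3 repeats. On 1455311_at the siDNMT1 arrays read 61.9, 112 and 122, against 90.7, 119 and 170 on the siNT arrays, and the groups overlapped, with repeat 1 the lowest in both. The differences were -0.35 (SE 0.29) and -0.24 (SE 0.20). The first of them was -0.065 without the siDNMT1 array of repeat 1 and -0.13 without the siNT array of repeat 3. The 2 dimmer probe sets had differences of 0.18 (SE 0.30) and 0.45 (SE 0.47), the last of them higher in 3 of 3 repeats at signals of 12.8, 33.1 and 25.5 under siDNMT1, against 6.71, 25.3 and 17.8 under siNT. The Dgcr8 gene itself holds a substrate of the enzyme pair, the microRNA hairpin Mir1306, which lies inside the gene on its strand (chr16:18284239-18284317, minus strand, GRCm38.p6). It is printed from RefSeq with both mature microRNAs in capitals, because the gene's messenger and this hairpin come from the same transcribed span.
Mir1306: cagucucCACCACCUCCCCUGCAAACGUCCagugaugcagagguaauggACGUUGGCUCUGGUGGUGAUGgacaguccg
The array probe sets used here read messenger RNA, and mature microRNAs were not analysed here.

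Dicer1, which makes the final cut, was read by 2 probe sets. The brighter, 1460571_at, read 81.1, 68.5 and 90.9 under siDNMT1, against 86.8, 92.9 and 101 under siNT. It was lower in 3 of 3 repeats, but the groups overlapped, with a difference of -0.22 (SE 0.20, 95% interval -0.66 to 0.22). The dimmer one, 1427941_at, was at 0.02 (SE 0.36), and its siDNMT1 and siNT arrays of repeat 3 were both the lowest of their group, at 21.5 for siDNMT1 and 16.3 for siNT. The repeat number took 92.3% of its sum of squares. The intervals leave room for a Dicer1 difference of up to 0.66 downward on the brighter probe set, so equality of the groups was not shown.

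Tarbp2 and Prkra, the partners of Dicer1, also had overlapping groups on their tested probe sets. Tarbp2 on its brighter probe set read 255, 121 and 192 under siDNMT1, against 216, 258 and 154 under siNT. The sign changed between repeats, with siDNMT1 at 47.0% of siNT in repeat 2 and at 118% and 125% in repeats 1 and 3, and the difference was -0.17 (SE 0.27). The dimmer Tarbp2 probe set, of a kind that can cross-hybridise, was at 0.19 (SE 0.27). Prkra read 81.4, 136 and 100.2 under siDNMT1, against 71.1, 114 and 108 under siNT. The arrays of repeat 1 were again the lowest in both groups, and the difference was 0.11 (SE 0.25).

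Xpo5, the export receptor, had the narrowest interval among the 10 genes on its brighter probe set, at 188, 186 and 175 under siDNMT1, against 157, 201 and 211 under siNT. The siDNMT1 values lay within the siNT range, with a difference of -0.04 (SE 0.18, 95% interval -0.44 to 0.36), and the sign was positive, at 0.02, when arrays were scaled to the same trimmed mean and at 0.03 after quantile normalisation. The other Xpo5 probe set was lower in 3 of 3 repeats, at 106, 180 and 77.6 under siDNMT1, against 117, 202 and 135 under siNT. Its difference of -0.36 (SE 0.30) came mostly from repeat 3, where siDNMT1 stood at 57.5% of siNT, against 90.1% and 89.0% in repeats 1 and 2.

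The 4 probe sets too dim to be tested were 2 of Ago3, 1 of Drosha and 1 of Prkra. Their scaled signals were 1.56 to 10.3 except for Ago3 1458476_at, which reached 41.2 on the siDNMT1 array and 14.6 on the siNT array of repeat 3. Without the filter their differences were 0.19 to 0.43, all positive, at levels near the added 5.29, and none passed the threshold, with a limma adjusted p of 1.00 for each.

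Across the 23 tested probe sets the repeat number took more of the sum of squares than the siRNA on 16, which is 69.6%, against 77.2% of all tested probe sets. The median share of the siRNA over all tested probe sets was 11.2%. The siRNA took 70.2%, 52.4% and 69.9% on Ago2 1455389_s_at, 1435636_at and 1455294_at and 63.8% on Ago3 1441063_at. With trimmed mean or quantile scaling the repeat number took more on 18 of the 23. These shares describe 6 arrays and were not tested. They favour the repeat number, since there were more repeats than siRNAs.

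**Figure D4:**
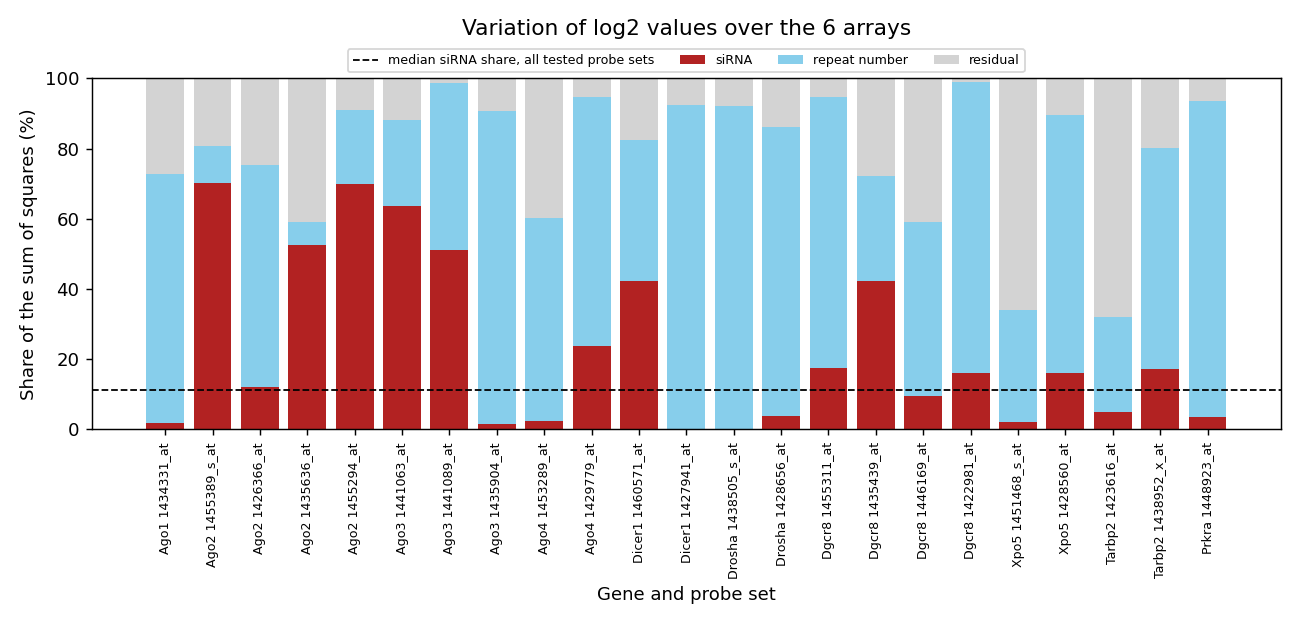
Share (%) of the sum of squares of the log2 values over the 6 arrays taken by the siRNA (red), the repeat number (blue) and the residual (grey) for each tested probe set, with the median siRNA share of all tested probe sets, 11.2%, as a dashed line. The siRNA took over 50% on 3 Ago2 and 2 Ago3 probe sets, and the repeat number over 90% on Prkra and on 1 probe set each of Dicer1 and Drosha. The shares are not adjusted for the larger number of repeats than of siRNAs, which favours the repeat number.

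A total of 5 lists of other genes around the pathway were described in the same fit, with the brightest tested probe set standing for each gene, and 0 members passed in either direction in the unpaired or the paired fit. Of the Argonaute partners and P-body genes 26 of 29 were tested, 5 with higher and 21 with lower values. Of all 27022 tested probe sets 15997 were lower, and of the 4455 in the signal range of Ago2 3004 were. The list median was -0.11, where all tested probe sets had -0.06. Ddx6, the helicase that represses messengers downstream of Argonaute, had the smallest p of the list. It read 186, 160 and 174 under siDNMT1, against 246, 252 and 259 under siNT, with no overlap. The means were 173 ± 13.2 under siDNMT1 and 252 ± 6.33 under siNT (SD, n = 3 each), a difference of -0.53 (SE 0.17, 95% interval -0.89 to -0.17) with a limma adjusted p of 1.00 unpaired and 0.361 paired. Its 3 dimmer probe sets were at -0.32, -0.44 and -0.07.

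Limd1, a LIM protein that binds Argonaute complexes, differed by -0.28 (SE 0.17), with siDNMT1 values of 204, 241 and 262 below siNT values of 281, 303 and 273. Its dimmer probe set was at -0.14 (SE 0.21), and there the groups overlapped. The deadenylase gene Cnot6l was at -0.25 (SE 0.18) and the decapping enzyme gene Dcp2 at -0.36 (SE 0.26), both with overlapping groups. The dimmer Cnot6l probe sets were at -0.06, -0.01 and -0.07, and that of Dcp2 at -0.09. Cnot7, another deadenylase gene, was at -0.17 and its groups did not overlap. With Ddx6 and Limd1 that made 3 of the 26 brightest probe sets, all lower. In that direction 5.78% of all tested probe sets were apart, and 7.36% of those in the signal range of Ago2, where Ddx6 and Limd1 lie. Cnot7 and the scaffold genes Tnrc6a, Tnrc6b and Tnrc6c were chosen after their values were seen. The scaffold genes, which join Argonaute to the deadenylases, were at -0.08, -0.36 and -0.19.

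Of the RISC loading and accessory genes 18 of 24 were tested, of which 7 were higher and 11 lower in value (median -0.05). Mapkapk2, a stress kinase that phosphorylates human AGO2, read 171, 178 and 145 under siDNMT1, against 105, 128 and 129 under siNT. The groups did not overlap, and the difference was 0.43 (SE 0.19) with a paired limma adjusted p of 0.574. The Tudor nuclease gene Snd1 was at -0.43 (SE 0.23) and its dimmer probe set at 0.59 (SE 0.29), so the 2 had opposite signs. The RNA helicase gene Dhx9 was at -0.26 (SE 0.19) and Fxr2, of the fragile X family, at 0.30 (SE 0.23). The dimmer Dhx9 probe set was at -0.14.

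Of the microprocessor cofactors and regulators of microRNA precursors 24 of 28 were tested, 12 in each direction (median -0.02), with Hnrnpa1 at 0.30 (SE 0.20), the GTPase gene Ran, on which export by Xpo5 depends, at -0.15 (SE 0.13), Tardbp at -0.25 (SE 0.25) and the nuclease gene Zc3h12a at 0.20 (SE 0.22). The 4 dimmer Tardbp probe sets were at -0.10, 0.14, -0.03 and -0.13, and those of Ran ran from -0.27 to 0.05, so neither gene had 1 sign throughout. Dimmer probe sets of Hnrnpa1 and Zc3h12a were at 0.10 and 0.38. Of the other double-stranded RNA binding and small RNA genes 12 of 14 were tested, 4 higher and 8 lower (median -0.12), with Prkrip1 at -0.26 (SE 0.17), Cdkn2aip at 0.56 (SE 0.38), the exonuclease gene Pnpt1 at -0.65 (SE 0.62) and the deadenylase gene Parn at -0.18 (SE 0.21). Dimmer probe sets of Pnpt1 and Parn were at -0.46 and -0.42. Of the PIWI pathway genes, the germline small RNA branch, 6 of 15 were tested, 3 in each direction (median -0.01). Gtsf1, a PIWI cofactor, was at 0.88 (SE 0.52) on a dim probe set, Tdrd5 at -0.50 (SE 0.49), Tdrkh at -0.12 (SE 0.30) and Tdrd7 at 0.10 (SE 0.27). The dimmer Gtsf1 probe set was at 1.16 (SE 0.61), with overlapping groups.

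**Figure D5:**
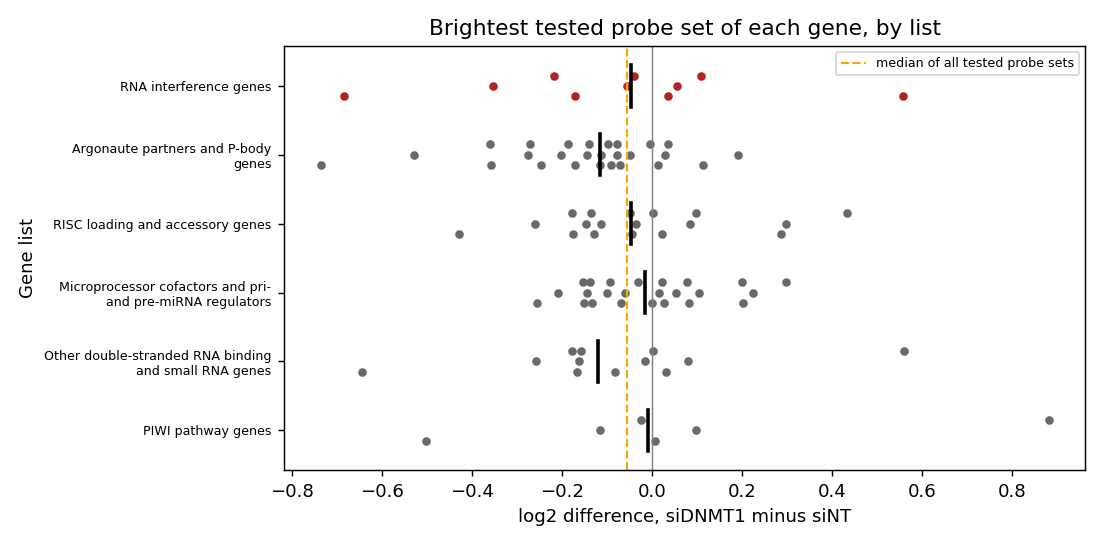
Log2 differences, siDNMT1 minus siNT, of the brightest tested probe set of each gene for the 10 RNA interference genes (red) and the 5 lists of other genes (grey), with list medians as black bars and the median of all tested probe sets (-0.06) as a dashed line. The list medians run from -0.12 to -0.01, and single genes lie on both sides of 0 in every list.

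Among 13476 other genes the 3 whose brightest probe set followed that of Ago2 most closely over the 6 arrays were Rp9, Marveld1 and Arfip2, with Pearson correlations of 0.997, 0.993 and 0.992 of the log2 values. For Dicer1 they were Dync1li1, Pstk and Ankzf1, at 0.995, 0.992 and 0.984. These values rest on 6 arrays and were the highest of many, so they describe likeness in these arrays alone.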

How the data were processed

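The members and gene lists were chosen with earlier results of these data known. Each deposited value is a linear-scale intensity of 1 probe set on 1 array, made by the authors with GCOS, the Affymetrix operating software, per the submitters' processing notes. Algorithm settings and detection calls were not given in the sources used here. Deposited array medians were 19.8 to 36.3, so the arrays were brought to a common median of log2 values. A pseudocount of 5.29, the 20th percentile of all deposited values, was added before taking log2. Of 45101 probe sets, 64 controls and 18015 with a mean scaled signal under 16.8, the 40th percentile, were left out. A two-sided moderated test with a variance trend (lmFit and eBayes of limma 3.58.1, R 4.3.3) compared siDNMT1 with siNT, with Benjamini-Hochberg adjustment over 27022 probe sets and a threshold of 0.05, and was tested on simulated data. Groups came from the labels, which describe independent repeats. Deviations of arrays of the same repeat from their group means correlated at 0.173, 0.231 and 0.257. Those of different repeats correlated at -0.179 to -0.0283, but centring on the group means pushes these below 0 where the first are positive. Arrays of the same repeat number were the more alike, and whether the numbers pair the arrays was not tested. No arrays held identical values. Symbols came from the platform annotation, and 0 changed against the RefSeq table of GRCm38.p6. Named are all members, Dnmt1, the up to 4 genes with the smallest p in each of 5 lists, and the 3 genes most like Ago2 and Dicer1. Cnot7, Tnrc6a, Tnrc6b and Tnrc6c fall outside this rule. The number of arrays limits the precision. Alternatives were other scalings, pseudocounts and filters, no variance trend, the repeat block, leaving out arrays or repeats, and leaving out probe sets that can cross-hybridise.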

Additional observations from a re-analysis of the deposited data

How the results depend on the processing

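No member probe set was called under any of the 19 alternatives except in the paired fit without repeat 3, which called 3, all of Ago2, where leaving out single repeats from the paired fit or single arrays gave 0 in every other case. Paired fits without 1 repeat take the spread of a probe set largely from other probe sets, so their calls do not measure the spread between repeats. Over all tested probe sets the unpaired fit called 0 and the paired one, with the replicate block, 23. The count was 1 with trimmed mean scaling, 1 with quantile scaling, 2 with no scaling, 1 with the stricter filter and 1 without probe sets that can cross-hybridise. Leaving out single arrays gave 0 to 4 calls, and the paired fit without 1 repeat gave 41 to 266. Dnmt1 differed by -1.54, past the threshold in the paired fit, by -1.79 to -1.26 without single arrays, past it without siDNMT1 array 3, and by -1.79 to -1.17 in the paired fit without 1 repeat (-1.65 without repeat 1), past it each time. Among the single probe sets named in the text, the replicate block over all 3 repeats changed no call but that of Dnmt1. The cause of these shifts was not tested. Of 794 values of the 43 other results under alternatives, 40 of 16 results had the opposite sign, and 38 of these came from leaving out arrays or repeats. With trimmed mean and quantile scaling Xpo5 1451468_s_at turned to 0.021 and 0.032. Among results that turned, the differences without single arrays ran from -0.052 to 0.23 for Ago1 1434331_at, -0.42 to 0.077 for Ago2 1426366_at, -0.21 to 0.34 for Ago3 1435904_at, -0.22 to 0.084 for Ago4 1453289_at and -0.31 to 0.22 for Dicer1 1427941_at. They ran from -0.21 to 0.29 for Drosha 1438505_s_at, -0.63 to 0.055 for Drosha 1428656_at, -0.032 to 0.33 for Dgcr8 1446169_at, -0.17 to 0.043 for Xpo5 1451468_s_at and -0.41 to 0.11 for Tarbp2 1423616_at. The others ran from -0.093 to 0.27 for Prkra 1448923_at, -0.45 to 0.026 for Tardbp, -1.14 to 0.28 for Pnpt1, -0.83 to 0.036 for Tdrd5, -0.43 to 0.17 for Tdrkh and -0.098 to 0.22 for Tdrd7. In the paired fit without 1 repeat the differences that turned ran from -0.086 to 0.19 for Ago1 1434331_at, -0.019 to 0.25 for Ago3 1435904_at, -0.19 to 0.080 for Ago4 1453289_at and -0.12 to 0.14 for Dicer1 1427941_at. They also ran from -0.098 to 0.15 for Drosha 1438505_s_at, -0.42 to 0.032 for Drosha 1428656_at, -0.19 to 0.076 for Xpo5 1451468_s_at and -0.41 to 0.27 for Tarbp2 1423616_at. The rest ran from -0.53 to 0.082 for Tardbp, -1.05 to 0.065 for Pnpt1, -0.28 to 0.074 for Tdrkh and -0.079 to 0.23 for Tdrd7. On Ago2 1455389_s_at, 1435636_at and 1455294_at the sign held under every alternative run on them. Differences near the pseudocount are understated.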
